A study of Rattus norvegicus with 12 samples.

Results

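The genes described here were chosen by symbol as genes of G protein and cyclic nucleotide signalling, and they were measured in tissue punches from rats. Array features were taken as members where the annotation gave exactly 1 gene symbol and that symbol belonged to a G protein alpha, beta or gamma subunit (Gna, Gnb, Gng), a regulator of G protein signalling (Rgs), an adenylyl cyclase (Adcy), a phosphodiesterase (Pde), protein kinase A (Prkac, Prkar), a beta-arrestin (Arrb) or a G protein-coupled receptor kinase (Grk). This gave 78 of the 18144 features on the array. They lay in 39 sets of 2 neighbouring features that shared an accession, and each such set is called a probe below. The 39 probes stood for 36 genes, since Gnb1, Prkar1a and Arrb2 had 2 probes each. A further 8 features carried a matching symbol among several and were left out by the rule. Symbols came from an older annotation, and no probe sequence was checked.

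The tissue was labelled NTS, an abbreviation the sources used here do not spell out, and was punched from slices of 250 micrometres. It came from 6 rats labelled alcoholic and 6 labelled control, which the titles join into 6 animal pairs and the series calls ethanol treated and paired control. Each animal had 1 array, with its own RNA in Cy5 and a reference RNA in Cy3. The sources used here give no strain, sex, age, ethanol dose or duration, and do not say what the reference was made of. Both groups shared the same punching, RNA amplification, dyes and reference. The deposited values were log2 ratios, taken to be sample over reference because of the dyes. The values themselves do not state their direction, and all signs turn if it is the opposite. The median of each array was subtracted, so a value of 0 means the same ratio to the reference as the median feature of that array, and a difference of 1 is a 2-fold change. Exact zeros were treated as missing.

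G proteins couple receptors for transmitters and hormones to enzymes inside the cell. The alpha subunit binds GTP and separates from the beta and gamma subunits, Gs and Gi alpha subunits stimulate and inhibit adenylyl cyclase, and Gq activates phospholipase C. RGS proteins speed the return of alpha subunits to the GDP-bound state, phosphodiesterases break down cyclic AMP and cyclic GMP, protein kinase A is the main cyclic AMP effector, and receptor kinases with arrestins switch off active receptors. Ethanol is known to act on adenylyl cyclase signalling in neurons.

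The members' ratios to the reference spanned a wide range, and most probes kept their side of the array median in every animal. Mean centred log2 ratios over the arrays ran from -3.18 for Rgs8 to 3.16 for Pde8a. They were above the array median for 15 probes and below it for 24. On every measured array 12 probes stood above 0 and 19 below, and 8 lay on both sides. The median of the 39 probe means was -0.65, against -0.02 over all features tested. These ratios depend on the unknown reference and on the dyes, which were never swapped, so they do not order the genes by abundance in the tissue.

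**Figure D1:**
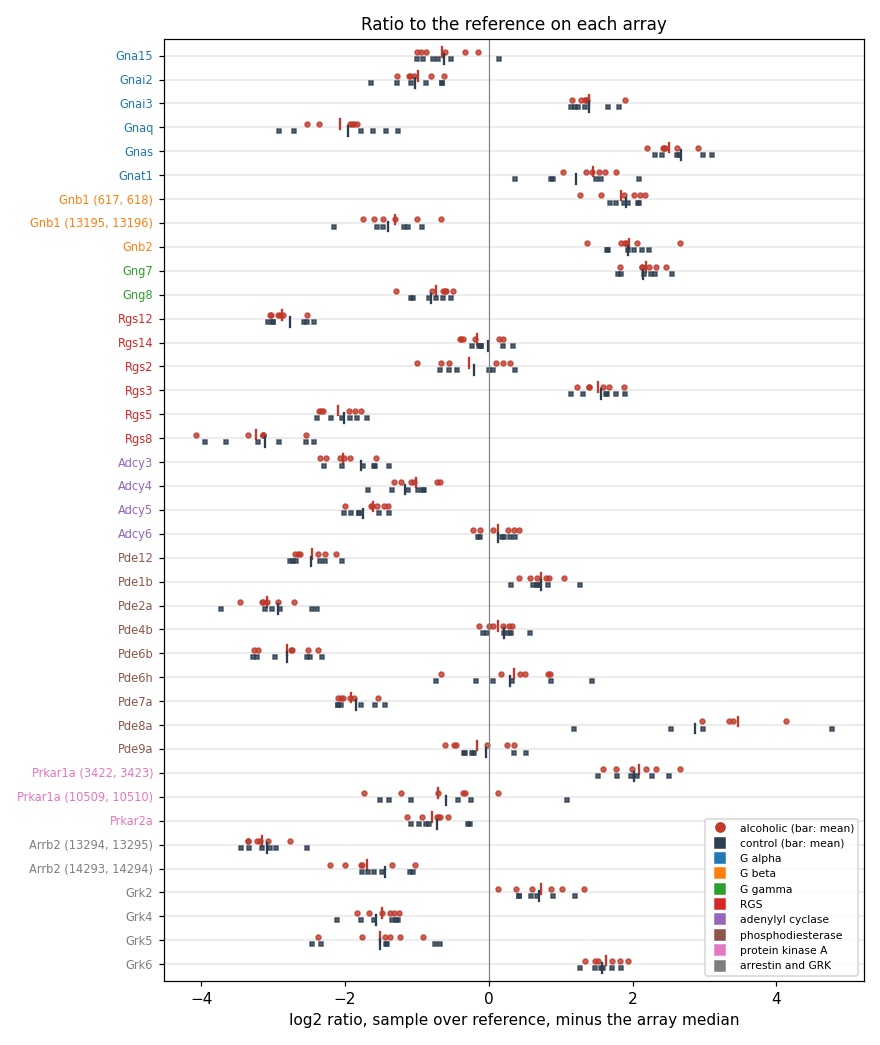
Centred log2 ratio to the reference (horizontal axis) of each of the 39 probes on every array that measured it, by gene family (label colour); circles are alcoholic animals, squares control animals and short bars group means. Gnas, Gng7 and 1 Prkar1a probe sit above 1.5 on every array, Rgs8, Rgs12 and 1 Arrb2 probe below -2.4, and the groups overlap for every probe.

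Among the alpha subunits, Gnas, which encodes the stimulatory subunit Gs, had the highest ratio, 2.59 on average over the 12 arrays. Gnai3, an inhibitory subunit, stood at 1.40 while Gnai2, another inhibitory subunit, stood at -1.01. Gnaq, the subunit that activates phospholipase C, was at -2.01. Gnat1, the alpha subunit of rod transducin, best known from photoreceptors, was at 1.33 and above 0 on 12 arrays. Gna15, a Gq-class subunit known from blood cells, was at -0.64 and above 0 on only 1 array.

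The beta and gamma subunits divided in the same way. Gnb2 stood at 1.95, and Gng7, a gamma subunit enriched in striatum, at 2.17, both above 0 on 12 arrays. Gng8, a gamma subunit of olfactory and vomeronasal neurons, stood at -0.77 and was above 0 on 0 arrays. For Gnb1 the answer depended on the probe: 1.87 at features 617 and 618, and -1.35 at features 13195 and 13196.

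The 6 RGS probes ranged from -3.18 to 1.54, and 5 of them had means below the array median. Rgs8 was lowest, followed by Rgs12 at -2.82 and Rgs5, which is also a marker of vessel wall pericytes, at -2.06. Rgs2 and Rgs14 lay near the median at -0.24 and -0.09, and Rgs3 stood at 1.54. Of the adenylyl cyclases, Adcy6 was at 0.13, Adcy4 at -1.08, Adcy5 at -1.68 and Adcy3 at -1.90.

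Phosphodiesterase probes covered nearly the whole range of the members. Pde2a, activated by cyclic GMP, stood at -3.01 and Pde6b, the rod photoreceptor enzyme, at -2.80. Pde12 was at -2.47; it is a mitochondrial enzyme that degrades 2',5'-oligoadenylate and poly(A), and no cyclic nucleotide enzyme, although its symbol meets the rule. Pde7a was at -1.88, Pde9a, which is specific for cyclic GMP, at -0.10, and the cyclic AMP enzyme Pde4b at 0.17. Pde6h, the gamma subunit of the cone enzyme, stood at 0.32 and the calmodulin-dependent Pde1b at 0.73. Pde8a had the highest mean of the members, but only 8 arrays gave a value and these ran from 1.18 to 4.77.

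Protein kinase A was represented by regulatory subunits, with 0 features for a catalytic subunit under a single symbol. Prkar2a stood at -0.75. Prkar1a was at 2.05 on features 3422 and 3423 and at -0.65 on features 10509 and 10510. The arrestin gene Arrb2 was at -3.12 on features 13294 and 13295 and at -1.56 on features 14293 and 14294. Of the receptor kinases, Grk6 stood at 1.61 and Grk2 at 0.71, and Grk4 and Grk5 at -1.53 and -1.52.

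Probes under the same symbol therefore did not give the same ratio. Their means differed by 3.22 on the log2 scale for Gnb1, 2.70 for Prkar1a and 1.55 for Arrb2. The sign of the difference between alcoholic and control animals was shared by the paired probes in only 2 of 6 animal pairs for each of these genes. Different probes are therefore reported one by one and not averaged.

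The pairing addresses whether these genes differ between alcoholic animals and their controls, and no member was called. The test was limma with the animal pair as a term, run over the 11852 probes and single features for which at least 4 pairs had both values. It covered 38 of the 39 probes, or 35 of 36 genes, since Pde8a had both values in only 3 pairs. At an adjusted p of 0.05, 0 of 38 members passed, where 0% of all features did. At an unadjusted p under 0.05, 0 of 38 members passed, against 2.37% of all features, and the smallest member p was 0.079. By limma the adjusted p was 0.999 for each of them. The design text counts the animals of a group as biological repeats.

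Most of the differences were small. The absolute difference was under 0.1 for 24 of 38 probes and over 0.2 for 3, namely Adcy3, Arrb2 (features 14293 and 14294) and Gnat1. The median difference was -0.02 over the members and 0.01 over all features, and the median absolute difference was 0.08 against 0.10. The absolute sizes are not like for like, since all features include single ones and each member is an average. By sign 24 members lay below 0 and 14 above, so 63.2% were below, against 48.2% of all features. This share was not tested. Without 1 pair it lay between 50% and 68.4%. Over the other settings it ran from 56.6%, with each feature taken alone, to 76.3%, without centring. The share of all features below 0 was not taken under these settings. The 48.2% therefore stands beside the 63.2% only. No member went in 1 direction in all 6 pairs, where 1.61% of all features did. In at least 5 of 6 pairs 5 members did, which is 13.2% against 16.6%. Alcoholic and control values overlapped for all 38 members, where 0.00908% of all features had groups that did not overlap.

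The intervals show what sizes of change remain possible. The median standard error of a member's difference was 0.142, against 0.162 over all features. For 37 of 38 members the 95% interval stayed inside a 2-fold change up or down, and for 34 inside 1.5-fold. Over all features these shares were 86.3% and 65.9%. Each member is a mean of 2 features, whereas all features include single ones that were not averaged. The standard errors and shares are therefore not like for like, and members were not compared with averaged probes alone. The exception at 2-fold was the Prkar1a probe at features 10509 and 10510, and the others outside 1.5-fold were Gnat1, Rgs2 and Arrb2 (features 14293 and 14294).

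**Figure D2:**
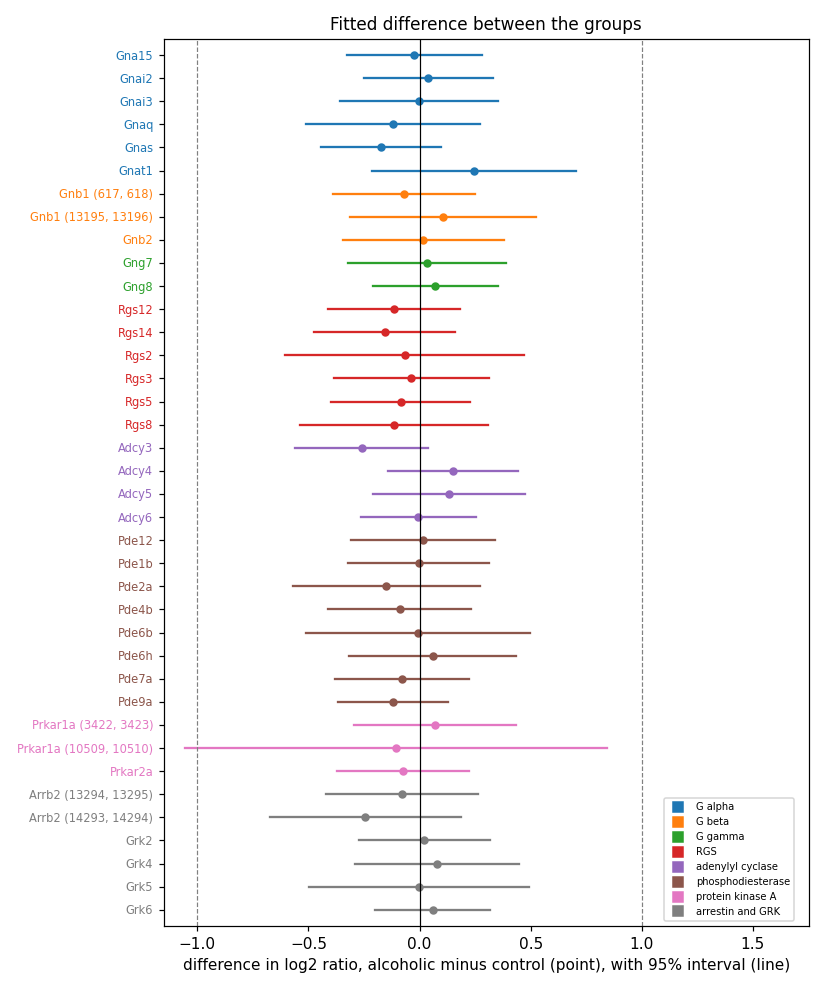
Fitted difference in log2 ratio, alcoholic minus control (horizontal axis; point), with its 95% interval (line) for the 38 probes tested, coloured by gene family; dashed lines mark a 2-fold change. Every interval holds 0, and 37 of 38 lie inside the dashed lines.

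Adcy3, an adenylyl cyclase known from olfactory neurons and neuronal cilia, had the smallest p and the widest negative difference. Its centred log2 ratio ran from -2.35 to -1.56 in alcoholic animals, with a median of -2.04, and from -2.29 to -1.39 in control animals, with a median of -1.67. The alcoholic median was the lower, but the groups overlapped over most of their ranges. The means were -2.03 ± 0.28 (SD, n = 6) and -1.77 ± 0.33 (SD, n = 6). The difference was -0.26 (SE 0.13, 95% interval -0.56 to 0.04, unadjusted p = 0.079 by limma) and was negative in 5 of 6 pairs. The pair differences were -0.06, -0.48, -0.69, -0.19, -0.17 and 0.03 for pairs 1 to 6, so pairs 2 and 3 carried most of it. Taken singly by limma, its first feature differed by -0.18 (unadjusted p = 0.224) and its second by -0.34 (unadjusted p = 0.041), each with an adjusted p of 0.998.

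The other adenylyl cyclases lay above or near 0. Adcy4 differed by 0.15 (95% interval -0.14 to 0.44) and Adcy5 by 0.13 (-0.21 to 0.47), each positive in 4 of 6 pairs. Adcy4 had a median of -1.06 in alcoholic and also in control animals. For Adcy6, one of the calcium-inhibited cyclases like Adcy5, the difference was -0.01 with an interval from -0.26 to 0.25, and 4 of 6 pairs were positive. Adcy6 ran from -0.22 to 0.42 in alcoholic and from -0.16 to 0.37 in control animals. Of the 4 cyclase probes, 0 had an unadjusted p under 0.05.

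Of the 6 alpha subunits 2 lay above 0 and 4 below, with a median difference of -0.01. Gnas ran from 2.19 to 2.92 (median 2.44) in alcoholic and from 2.32 to 3.10 (median 2.64) in control animals. These ranges shared most of their length. The difference was -0.17 (SE 0.12, 95% interval -0.44 to 0.09, unadjusted p = 0.172 by limma), negative in 4 of 6 pairs. Gnat1 had the widest positive difference of all members, 0.24, with an interval from -0.22 to 0.70. Its alcoholic values ran from 1.03 to 1.76 (median 1.49) and its control values from 0.37 to 2.08 (median 1.19). The pair 3 control, at 0.37, was the lowest Gnat1 value, and pair 3 alone gave a difference of 1.17. Without pair 3 the Gnat1 difference was 0.06. Taken singly over all pairs, the neighbouring features of Gnat1 were unlike in size, at 0.41 and 0.07.

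Gnaq differed by -0.12 (95% interval -0.51 to 0.27). Its control animals were spread from -2.92 to -1.26, and its alcoholic animals from -2.54 to -1.84, inside the control range. Gnai2 and Gnai3 differed by 0.04 and -0.002, and Gna15 by -0.02. Their intervals reached at most 0.36 in size.

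Among the beta and gamma subunits all differences were at most 0.10 in size. The Gnb1 probes differed by -0.07 (features 617 and 618) and 0.10 (features 13195 and 13196), Gnb2 by 0.02, Gng7 by 0.03 and Gng8 by 0.07. For Gng7, alcoholic values ran from 1.82 to 2.47 with a median of 2.18, and control values from 1.80 to 2.55 with a median of 2.20. Its interval was -0.32 to 0.39.

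All 6 RGS probes had a difference below 0, with a median of -0.10 and 0 of 6 at an unadjusted p under 0.05. Rgs14, which also binds inactive Gi alpha subunits, differed by -0.16 (SE 0.14, 95% interval -0.47 to 0.16) and was negative in 5 of 6 pairs. Its neighbouring features did not share that sign, at -0.34 and 0.02. The probe ran from -0.40 to 0.20 in alcoholic animals (median -0.28) and from -0.24 to 0.34 in control animals (median -0.11). Rgs12 and Rgs8 each differed by -0.12, Rgs5 by -0.09, Rgs2 by -0.07 and Rgs3 by -0.04. Rgs2, Rgs3, Rgs5 and Rgs8 had a positive difference once some single pair was left out, and Rgs2 and Rgs5 were positive in 4 of 6 pairs even with all of them.

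Rgs2, an inhibitor of Gq known as an early response gene, had the widest interval of this family, -0.60 to 0.47. Its values ran from -1.0 to 0.30 in alcoholic and from -0.68 to 0.37 in control animals, with a median of -0.22 in both. The pair differences reached from -1.04 in pair 3 to 0.75 in pair 6.

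Of the 8 phosphodiesterase probes tested 2 lay above 0 and 6 below, with a median of -0.04. Pde2a differed by -0.15 (95% interval -0.57 to 0.27), Pde9a by -0.12 (-0.37 to 0.13) and Pde4b by -0.09 (-0.41 to 0.23). Pde9a was negative in 5 of 6 pairs, and its difference had the smallest standard error of this family, 0.11. Its neighbouring features were unlike in size, at -0.028 and -0.21. The Pde9a probe ran from -0.60 to 0.35 in alcoholic animals (median -0.24) and from -0.35 to 0.52 in control animals (median -0.22). For Pde4b the difference came mostly from pair 5, at -0.72, where the other pairs lay between -0.02 and 0.15. Without pair 5 Pde4b differed by 0.04.

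Pde7a differed by -0.08, Pde6h by 0.06, Pde12 by 0.02, Pde6b by -0.01 and Pde1b by -0.003. Pde8a was not tested. Its alcoholic values were 4.14, 3.40, 3.34 and 2.96 in pairs 1, 2, 3 and 6, and its control values 2.54, 4.77, 1.18 and 2.98 in pairs 1 to 4. The 3 pairs with both values differed by 1.60, -1.37 and 2.16.

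For protein kinase A, the Prkar1a probes differed by 0.07 (features 3422 and 3423) and -0.11 (features 10509 and 10510), and Prkar2a by -0.08. The features of Prkar2a had opposite signs, at -0.19 and 0.04, as did those of the second Prkar1a probe, at -0.29 and 0.08. The second Prkar1a probe was the most variable tested member. In alcoholic animals it ran from -1.74 to 0.12 (median -0.54) and in control animals from -1.52 to 1.08 (median -0.76). Its pair differences were 1.51 and 0.81 in pairs 1 and 2, -1.48 and -1.41 in pairs 3 and 4, and 0.07 and -0.13 in pairs 5 and 6. These opposed one another, and the standard error was 0.41 with an interval from -1.06 to 0.84. On the first Prkar1a probe, pairs 1, 4, 5 and 6 had the opposite sign, at -0.185, 0.605, -0.315 and 0.345.

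Of the 6 arrestin and receptor kinase probes 3 lay above 0 and 3 below. Arrb2 at features 14293 and 14294 differed by -0.24 (SE 0.18, 95% interval -0.67 to 0.18, unadjusted p = 0.222 by limma). Its values ran from -2.21 to -1.02 (median -1.78) in alcoholic and from -1.76 to -1.05 (median -1.54) in control animals. Only pair 1 was positive, at 0.65. Without pair 1 the difference was -0.42, with an unadjusted p of 0.015 by limma and an adjusted p of 0.999. The neighbouring features of this probe were unlike in size. Taken singly by limma over all pairs, the first differed by -0.074 (unadjusted p = 0.763) and the second by -0.416 (unadjusted p = 0.037). Each had an adjusted p of 0.998. The other Arrb2 probe differed by -0.08 and was negative in 3 of 6 pairs. Among the kinases that phosphorylate active receptors, Grk4 differed by 0.08, Grk6 by 0.06, Grk2 by 0.02 and Grk5 by -0.002. Grk4 was positive in 5 of 6 pairs, though with an interval from -0.29 to 0.45.

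The animal pairs did not shift the members in a common direction. The median difference over the 38 members was 0.12 in pair 1, -0.02 in pair 2, -0.18 in pair 3, 0.02 in pair 4, 0.005 in pair 5 and -0.13 in pair 6. Over all features the medians were 0.07, 0.00, 0.02, 0.00, 0.02 and -0.06. The members thus lay on the positive side in pair 1, with 24 of 38 above 0, and on the negative side in pairs 3 and 6, with 24 of 38 below 0 in each. Members were most dispersed in pair 3, where their differences had an SD of 0.55, and least in pair 5, with 0.26.

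**Figure D3:**
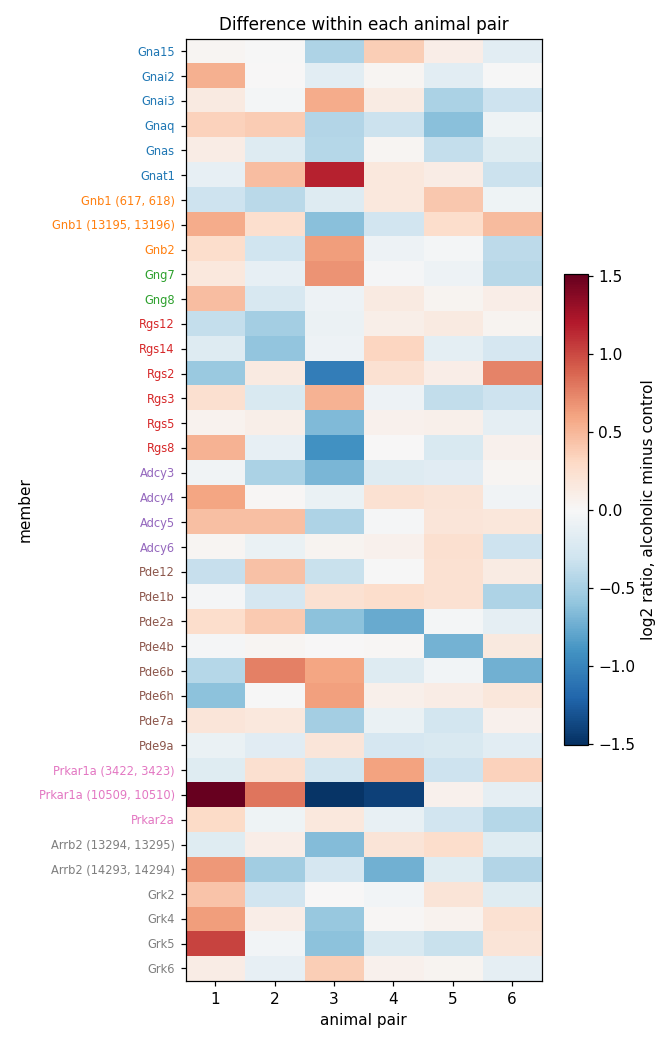
Difference in centred log2 ratio, alcoholic minus control (colour scale), within each animal pair (columns) for the 38 tested probes (rows, label colour by family). Columns differ in colour: in pair 3 Gnat1 reaches 1.17 and 1 Prkar1a probe -1.48, while in pair 5 only Gnai3, Gnaq, Pde4b and 1 Gnb1 probe pass 0.4 in size.

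In pair 3 the sign of a member's difference followed its ratio to the reference. Of the 14 members whose mean ratio on the arrays of the other pairs was above 0, 10 were higher in the alcoholic animal, with a median difference of 0.30. Of the 24 members with a ratio below 0, 21 were lower, with a median of -0.46. Gnat1, Gng7, Gnb2, Gnai3 and Rgs3 were among the first, at 1.17, 0.68, 0.64, 0.56 and 0.53, and Rgs8, Adcy3, Rgs5 and Grk5 among the second, at -0.92, -0.69, -0.66 and -0.62. Gnas went the other way, at -0.43 with a high ratio.

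As a description across the 38 members, which share arrays, the coefficient between the pair 3 difference and that mean ratio was 0.52, and 0.31 over all features. In the other pairs the members' coefficient lay between -0.28 and 0.31. The pair 3 control array had the narrowest spread of ratios, with an SD of 1.52 over all features, where the other arrays lay between 1.66 and 1.91. Quantile normalization gives every array the same spread and was chosen for this question after the values were seen. With it, the members' coefficient in pair 3 was 0.12 and that over all features 0.03. Equal spread lowers such a coefficient by construction where 1 array is narrower, so the fall is no test of a cause. The members' coefficient in the other pairs then lay between -0.30 and 0.32. Their SD in pair 3 was 0.51, against 0.55 with median centring. The cause was not tested.

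**Figure D4:**
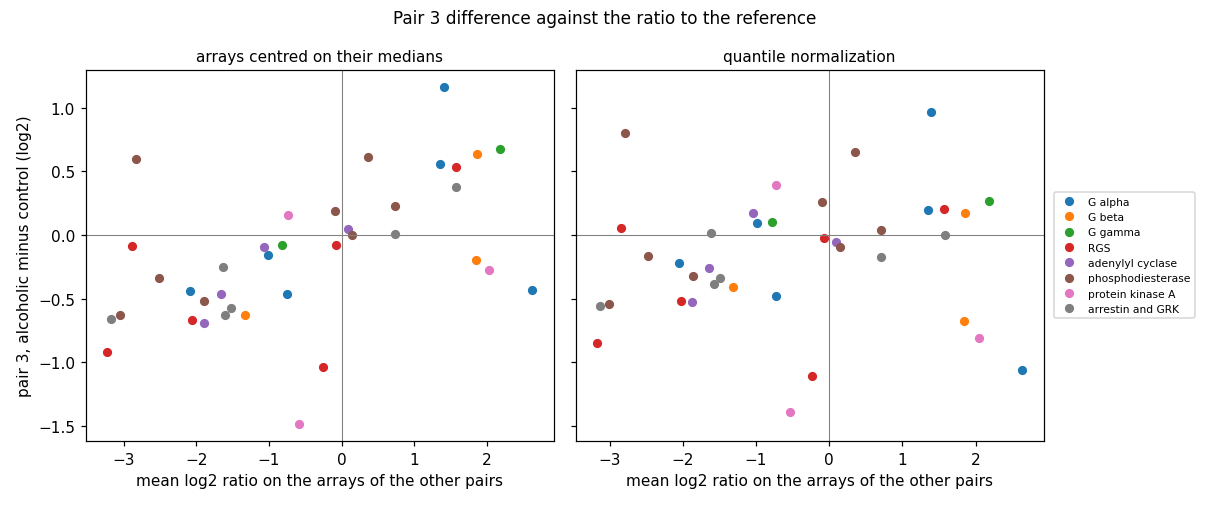
Difference in pair 3, alcoholic minus control (vertical axis, log2), against the mean log2 ratio of the same probe on the arrays of the other pairs (horizontal axis), for 38 probes coloured by family, with median centring on the left and quantile normalization on the right. On the left most probes with a negative ratio lie below 0, with a coefficient of 0.52; on the right it is 0.12.

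The share of the members' spread that lay between animal pairs was near that of other features. Unrelated arrays joined in pairs would also put a part of their spread between pairs. That part was not estimated, so the shares alone do not measure an effect of the pairing. The share of the spread over the 12 arrays that lay between pairs had a median of 67.5% for the members and 62.5% over the 11017 features with every value. The share exceeded 75% for 13 of 38 members, against 27.7% of all features with every value. It was highest for Pde9a at 93.3%, followed by Pde6h at 91.1%, Grk2 at 87.7%, Gna15 at 86.7% and Adcy6 at 85.2%.

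The members that varied this way did not all vary alike. The Pde9a pair means were 0.30 and 0.44 in pairs 1 and 2 and between -0.48 and -0.12 in the other pairs. Pde6h stood at 1.13 and 0.86 in pairs 1 and 2 and at -0.70 in pair 4. Gnaq, in contrast, was low in pairs 1 and 2, at -2.54 and -2.73, and between -1.80 and -1.58 elsewhere. Grk5 likewise stood at -1.95 and -2.36 in pairs 1 and 2 and at -0.80 in pair 4. Grk2 was at 1.11 in pairs 1 and 6 and at 0.28 in pair 2. The sources used here do not say what the animals of a pair share beyond the pairing itself, and its part in these values was not tested.

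The spread over arrays also differed between members. The SD over the 12 arrays, taken on the mean of both features of a probe, holds the animals together with amplification, labelling and array error, which cannot be told apart here. It had a median of 0.28 over the tested members and ran from 0.21 for Grk6 and Pde4b to 0.80 for a Prkar1a probe. The median over all features was 0.35, but these include single features that were not averaged, so the medians are not like for like. The SD of a single spot, from the gap between the neighbouring features of a probe on the same array, had a median of 0.18 and ran from 0.06 for Adcy6 to 0.37 for Pde2a. These SDs are of different quantities, a mean of 2 spots and a single spot, and were not tested against each other. For the Prkar1a probe at features 10509 and 10510 the SD of a spot was 0.26. In 13 of 38 probes the neighbouring features, taken singly, had differences between alcoholic and control animals of opposite sign. Alcoholic animals had the wider SD in 12 of 38 members, or 31.6%, near the 36.9% of all features.

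**Figure D5:**
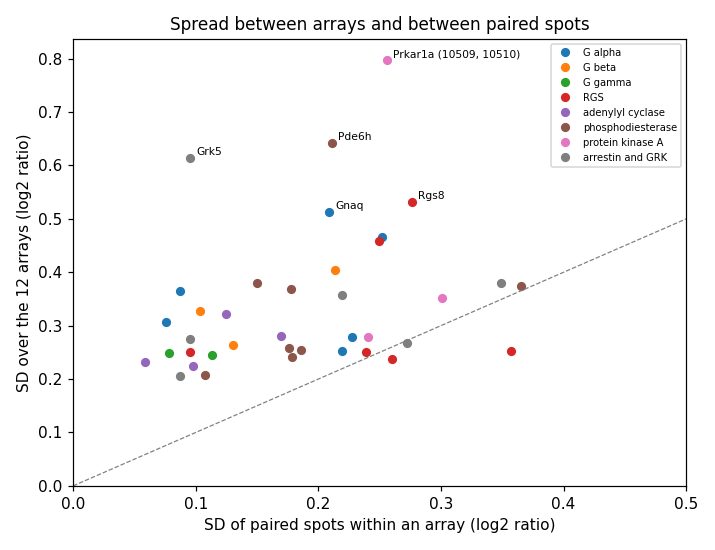
SD over the 12 arrays of the mean of both features (vertical axis) against the SD of neighbouring spots within an array (horizontal axis), both in log2 ratio, for the 38 tested probes coloured by family; the dashed line marks equality. The named probes, such as Grk5 and 1 Prkar1a probe, have an SD over 0.5 across the arrays.

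Other genes of the same pathways gave no call either. Of 228 further receptor, effector and cofactor genes listed, 56 were measured, by 59 probes. Of these, 0 passed an adjusted p of 0.05 and 0 an unadjusted p of 0.05 by limma, 34 lay above 0 and 25 below, and the median difference was 0.015. The 5 transmitter receptors had 1 above and 4 below 0, with Adra1b, an alpha-1 adrenergic receptor, at -0.21 (95% interval -0.68 to 0.26). The 11 receptors for peptides and lipids had 6 above and 5 below, with the chemokine receptor Cxcr4 at 0.28 (-0.13 to 0.68).

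Downstream, the 17 probes for phospholipase C, calcium release and calcium-dependent enzymes had 11 above and 6 below 0. Ppp3ca, the catalytic subunit of calcineurin, differed by 0.30 (95% interval -0.01 to 0.61, positive in 5 of 6 pairs, unadjusted p = 0.058 by limma). Its second probe differed by 0.20 and was also positive in 5 of 6 pairs. The 18 probes for cyclic nucleotide targets and anchors had 10 above and 8 below, with Popdc2, of a family of cyclic AMP binding membrane proteins, at 0.32 (-0.02 to 0.66). The 8 probes listed as cofactors and adaptors had 6 above and 2 below. Gnl3, which was in that list although it is a nucleolar GTPase, had its smallest p and differed by 0.11 (-0.13 to 0.36).

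Array medians before centring lay between 0.35 and 1.85, and 484 to 726 features per array were exactly 0. Of the members, 37 of 39 probes had a value at both features on every array; Grk4 lacked 1 spot value and Pde8a 12. Markers of the cell types a brain punch can hold were measured in part, and a ratio to an unknown reference cannot show whether a marker is present. Of 15 markers of catecholamine and visceral neurons 7 were measured, while Th and Dbh were not among the tested single symbols. For neurons in general 7 of 17 listed genes were measured, for astrocytes 8 of 14, oligodendrocytes 4 of 13, microglia 6 of 13, endothelium and vessel wall 9 of 12, choroid plexus and meninges 6 of 12 and blood 7 of 12. By limma 0 of these markers passed an adjusted p of 0.05. Over all the lists 1 marker, Npy, passed an unadjusted p of 0.05, where 2.37% of all features did. Of 9 astrocyte probes 8 lay above 0, with a median difference of 0.16; the exception, Aldoc, had the smallest p of that list and differed by -0.14, with 0 of 6 pairs higher. Of 7 choroid plexus and meninges probes 5 lay above 0, with a median of 0.15. Of 10 vessel wall probes 9 lay below 0, with a median of -0.07; Rgs5 is one of these. The medians of the other marker lists lay between -0.02 and 0.07. The part of such markers in the members' values was not tested. In bulk tissue, fewer cells of a type and less RNA per cell cannot be told apart.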

How the data were processed

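The deposited values were log2 ratios of 18144 features on 12 arrays with 2 channels; per the labels, Cy3 marked the reference and Cy5 the tissue RNA. For steps before deposit (background, filters, normalization) the sources used here give nothing. The log2 base was read from the size of the values.

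Exact zeros were set to missing and each array was centred on its median. Features sharing symbol and accession were averaged, which gave 12537 probes and single features (features with no accession stayed single). limma 3.58.1 (lmFit, eBayes) in R 4.3.3 was fitted to the 11852 with both values in at least 4 pairs, with a term for each pair and p-values adjusted over all of them (Benjamini-Hochberg, threshold 0.05). The titles state the pairs; deviations of a pair's arrays from their group means correlated with r of 0.27, 0.34, 0.04, 0.44, 0.23 and 0.08 for pairs 1 to 6, and 3 of 6 alcoholic arrays correlated best with their own control. The number of arrays limits the precision.

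Members, lists and tests were chosen with earlier results of these data known. Named by rule were, in each family, the 2 probes with the smallest p and those with the highest and lowest mean ratio, all probes of genes with more than 1 probe, and 7 measured of 12 genes listed by name; the remaining members are given so that all are accounted for. Of other pathway lists, the gene with the smallest p was named, and Ppp3ca's second probe was added after its value was seen. Alternatives are in the closing section.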

Additional observations from a re-analysis of the deposited data

Results flagged for a closer look

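For 3 of the 78 combinations of probe and group tested, 1 animal stood well apart from its group; chance flags about 1 in 20 such combinations, or 3.9 here. All 3 were alcoholic animals. Gnai3, an inhibitory alpha subunit, stood at 1.90 in pair 3, where the other alcoholic animals lay between 1.16 and 1.36. Rgs12 was at -2.52 in pair 3, above a range of -3.04 to -2.86. Gng8 was at -1.29 in pair 2, below a range of -0.79 to -0.50. All are centred log2 ratios.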

How the results depend on the processing

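No member passed an adjusted p of 0.05 in limma under any of the 8 other settings or without any 1 pair. Without centring 2 features outside the members passed. Taken feature by feature, 2 of 76 member features had an unadjusted p under 0.05 by limma, 1 each of Adcy3 and Arrb2. Over all features at that setting 406 of 17012 did. Without pair 1, 1 of 38 probes did (Arrb2), against 266 of 11679 over all features. The range over the pairs left out was 0 to 1 probe. The median difference of the members lay between -0.068 and -0.0067 over the other settings and between -0.047 and 0 without 1 pair. With no replicate block, so without the pairing, 0 members and 0 features passed, the smallest unadjusted member p was 0.175, the median was -0.015 and 136 of all features had an unadjusted p under 0.05 against 281; the block changed no call.

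Signs of small differences are not settled. In 16 of 38 members, with differences of at most 0.16 in size, the sign turned under another setting or on 1 of the neighbouring features. Without centring, Gnai2 differed by -0.013, Gnb2 by -0.035, Gng7 by -0.018, Pde12 by -0.037 and Grk2 by -0.032. The array medians then stay in the values, which moves the difference of every tested member by the same amount. With quantile normalization, Gnb2 differed by -0.0084, Pde1b by 0.0077 and Prkar1a (features 3422 and 3423) by -0.0097. Taken singly, the features of 13 probes had opposite signs. The first and second feature differed by 0.024 and -0.036 for Adcy6, -0.059 and 0.091 for Pde12, 0.094 and -0.10 for Pde1b, 0.074 and -0.088 for Pde6b and -0.033 and 0.074 for Grk2. They differed by -0.34 and 0.023 for Rgs14, -0.29 and 0.076 for Prkar1a (features 10509 and 10510), -0.19 and 0.041 for Prkar2a and -0.17 and 0.17 for Gnai3. Gna15, Gnb2, Gng7 and Grk5 were the others, at 0.10 or less in size on each feature. Averaged by symbol, which joins both probes of a gene, Gnb1 differed by 0.018 and Prkar1a by -0.018. Without 1 pair, 14 of 38 members kept their sign and 24 did not. For those 24 the ranges over the pairs left out were -0.10 to 0.064 for Gna15, -0.059 to 0.080 for Gnai2, -0.11 to 0.093 for Gnai3, -0.11 to 0.099 for Gnb2, -0.094 to 0.13 for Gng7, -0.0090 to 0.13 for Gng8, -0.23 to 0.13 for Rgs2 and -0.15 to 0.031 for Rgs3. They were -0.12 to 0.030 for Rgs5, -0.24 to 0.046 for Rgs8, -0.055 to 0.056 for Adcy6, -0.069 to 0.088 for Pde12, -0.057 to 0.090 for Pde1b, -0.14 to 0.035 for Pde4b, -0.16 to 0.14 for Pde6b and -0.053 to 0.19 for Pde6h. The remaining ranges were -0.13 to 0.0080 for Pde7a, -0.037 to 0.15 for Prkar1a (features 3422 and 3423), -0.43 to 0.17 for Prkar1a (features 10509 and 10510), -0.15 to 0.037 for Arrb2 (features 13294 and 13295), -0.062 to 0.083 for Grk2, -0.034 to 0.21 for Grk4, -0.21 to 0.12 for Grk5 and -0.0050 to 0.096 for Grk6. Apart from the common shift without centring, the cause of these changes was not tested.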
